A study of Drosophila melanogaster with 15 samples.

Results

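The change of the transcript pool between embryos before zygotic transcription and embryos in the slow phase of cellularisation was measured on 6 of the 15 arrays of a Drosophila melanogaster time course. The comparison took the 3 arrays titled T1 and the 3 titled T0, and all 13966 probe sets that are not array controls were tested. Embryos of T0 had not reached nuclear cycle 9, so that pole cells had not yet budded, and T1 held embryos in which membranes had begun to grow between the nuclei of the blastoderm. The labels give yellow white and Oregon R parents for both stages and do not say which array holds which strain. Neither a transgene nor a treatment is named for either stage. Eggs were collected for 30 min at 25 °C, aged at room temperature and hand-selected under oil, and labelled cRNA was made from 6 microg of total RNA of whole embryos. Nothing states that replicates came from separate collections. A p-value here reflects only the spread within the 5 stages of all 15 arrays, which were fitted together, and that spread may be technical.

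An insect egg starts development on RNA and protein that the mother loaded during oogenesis. In Drosophila the first nuclear divisions run without cytokinesis and almost without transcription. The maternal RNAs are then degraded, by factors of the egg and later by factors the embryo makes, while the zygotic genome is switched on in waves, an exchange known as the maternal-to-zygotic transition. Cellularisation, the first process that needs many zygotic genes, turns the syncytium into an epithelium.

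Values are signals in array units, which the deposited table scales so that the 2% trimmed mean of each array is 100, and they are given as the mean ± SD of 3 arrays (n = 3). A rise or fall is therefore relative to the average signal of an array. In whole embryos, fewer cells with a transcript and less transcript per cell cannot be told apart. Fold changes on the log2 scale are differences of log2(signal + 7.3), T1 minus T0, from a linear model in limma, with adjusted p-values by the Benjamini-Hochberg method over all probe sets. A probe set was called higher or lower where the adjusted p was under 0.05 and the log2 fold change was 1 or more in size. The background level, 21.96, is the 95th percentile of the negative-control signals. Where a fold is written as "at least", all 3 arrays of the dim stage were at or below that level, which then replaced their mean.

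Of the 13966 probe sets, 1092 were called higher at T1, which is 7.82%, and 2097 were called lower, which is 15%. Counted by gene, with the brightest probe set standing for each of 10844 genes, 885 (8.16%) were higher and 1784 (16.5%) lower. These shares are the background for the counts below. Before zygotic transcription 5524 genes (50.9%) lay above background on all 3 arrays. Of those maternally supplied genes 1746 (31.6%) were called lower at T1 and 543 (9.83%) higher. Among the 3940 genes at or below background on every T0 array, 247 (6.27%) were called higher. Both stages were tight. Over all probe sets Pearson r was between 0.959 and 0.964 for pairs of T0 arrays, for pairs of T1 arrays between 0.949 and 0.956, and for T0 with T1 arrays between 0.780 and 0.805.

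**Figure D1:**
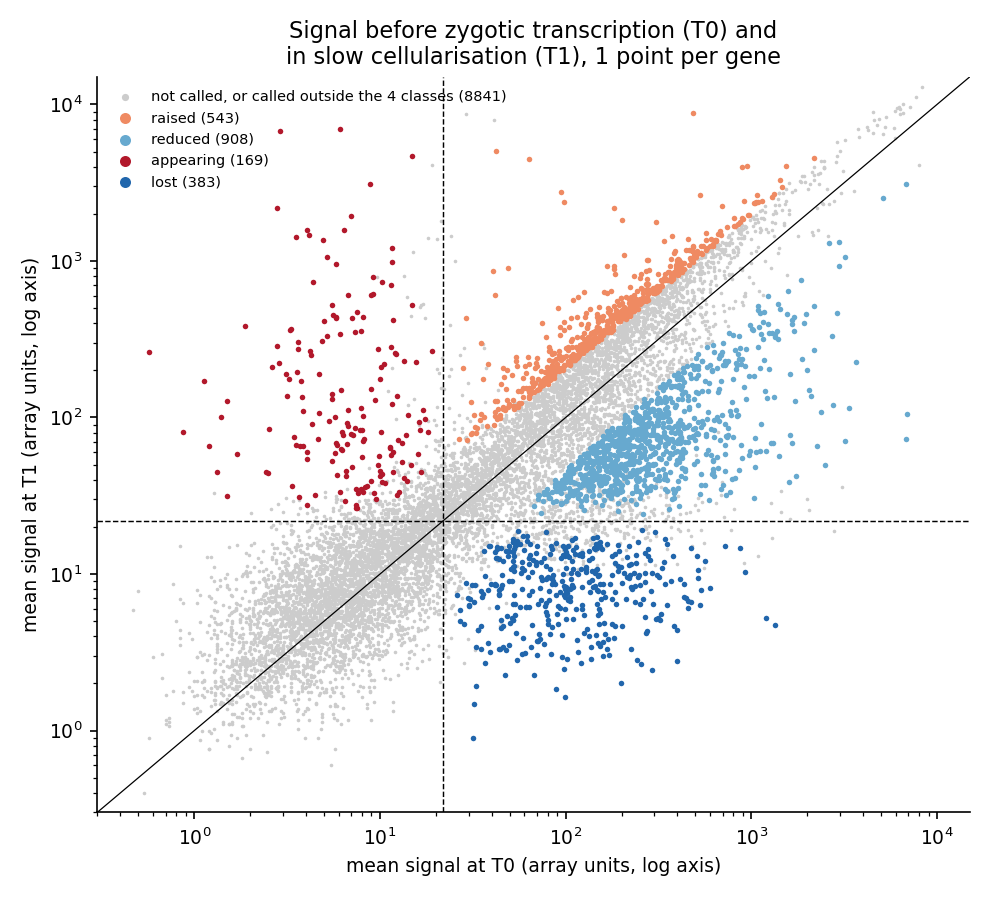
Mean signal of each of 10844 genes at T0 (horizontal, log axis) and at T1 (vertical, log axis), in array units. The dashed lines mark the background level of 21.96 and the solid line equal signal. The 169 appearing genes lie in the upper left field, the 383 lost genes in the lower right, and the 543 raised and 908 reduced genes lie above background at both stages.

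Called genes were divided by where they stood against background. There were 169 appearing genes, at or below background on all T0 arrays and above it on all T1 arrays, and 543 raised genes, which were above background already at T0. A further 173 genes were called higher without meeting either rule. On the other side 383 genes were lost, passing from above to at or below background on all arrays, 908 were reduced and stayed above it, and 493 were called lower between those rules. The median log2 fold change was 2.88 for appearing and 1.18 for raised genes, against -2.82 for lost and -1.70 for reduced genes. Of the genes called higher 683 (77.2%) changed by less than 2 on the log2 scale, and 46 (5.20%) by more than 5. Of the genes called lower 883 (49.5%) changed by less than 2, 561 (31.4%) by 2 to 3, and 33 (1.85%) by more than 5. The plot of T1 against T0 signals shows a broad lower field and a thin band of raised genes along the diagonal, with a sparse set of appearing genes far above it.

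The share of maternal genes called lower differed with their T0 signal. In the dimmest of 4 equal parts of the maternal genes, with T0 signals from 23.1 to 76.3, 16.4% were called lower, and in the 3 brighter parts 32.0%, 39.2% and 38.9%. In the brightest part, from 276 to 8247, 537 of 1381 genes were called lower and 43 (3.11%) were lost, whereas in the dimmest 137 (9.92%) were lost. Both shares are of genes whose T0 signal also enters the fold change.

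Zygotic gains among transcripts below background at T0 reached a log2 fold change of 9.37, that of Z600, which encodes a mitotic inhibitor. It had 2.4, 2.8 and 3.5 at T0 and 6807.5, 6191.2 and 7256.3 at T1, with all T1 arrays bright. Z600 is 1 of 7 measured genes of zygotic cellularisation, all 7 of which were higher, with a median of 4.57, and 6 of which remained called with ribosomal centring. Another is halo, which acts in lipid droplet transport (14.8 ± 4.02 to 4672 ± 480, log2 fold change 7.74). Below these, the gene bnb (bangles and beads) had T0 signals of 15.5, 2.3 and 3.2 and T1 signals of 1762.2, 1939.9 and 2089.4. Every T1 array was bright and every T0 array below background, and bnb rose at least 87.7-fold with a log2 fold change of 7.19 ± 0.27 (SE, adjusted p = 3.3e-10). CG8960 had 8.4, 0.8 and 2.9 at T0 and 1570.1, 1670.1 and 1517.8 at T1, at least 72.2-fold higher. The gene link went from 10.9, 2.4 and 1.5 to 1380.5, 1409.8 and 1269.9, at least 61.6-fold higher. In each of these the groups stood far apart, and the 3 T1 arrays differed little. CG13000 (at least 64.4-fold) and CG15382 (at least 47.8-fold) also appeared, as did Dtg, a target gene of the Dpp pathway (11.6 ± 4.65 to 1218 ± 248, at least 54.7-fold). Genes known only by a CG number made up 46 of the 169 appearing genes (27.2%), against 41.4% of all genes.

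Several genes of cell adhesion and epithelial organisation rose. Neurotactin, Nrt, a membrane adhesion protein, had 88.5, 54.3 and 47.9 at T0 and 3908.4, 4396.3 and 5041.2 at T1. It was above background before and far brighter after, a log2 fold change of 6.01 ± 0.22 (SE, adjusted p = 3.2e-10). Ama, which encodes Amalgam, the secreted ligand of Neurotactin, appeared in the same interval, from 21.1, 4.7 and 1.8 to 544.1, 614.6 and 688.5, at least 27.9-fold higher. The 3 T0 arrays of Ama all lay at or below background and the T1 arrays far above it. The synaptotagmin-like gene btsz, which acts on actin at adherens junctions of the early epithelium, rose at least 33.4-fold (10.2 ± 8.67 to 736 ± 83.8), and Lac, for the junction protein Lachesin, rose from 181 ± 23.5 to 2181 ± 82.3. Of the 25 measured adherens junction and polarity genes 9 were higher (36%) and 3 lower (12%), with a median log2 fold change of 0.88 against 0.08 over all genes. Among the 9 were shg, which encodes E-cadherin, crb (Crumbs), baz (Bazooka), sdt (Stardust) and ed (Echinoid), with ed moving from 129 ± 29.7 to 466 ± 37.2 and crb from 91.9 ± 14.9 to 267 ± 72.2. With arrays centred on ribosomal proteins or on hybridisation controls 4 of the 9 remained called, and crb and baz did not. Of the 3 lower calls, that of Nrx-IV, a septate junction gene, ended when any single T0 array, T1 replicate 1 or T1 replicate 2 was left out (adjusted p between 0.057 and 0.1), and that of Vinc, for Vinculin, ended without any 1 of 5 of the 6 arrays and with these 6 alone (adjusted p between 0.059 and 0.14, log2 fold change -0.88 without T0 replicate 2), and its T0 and T1 arrays overlapped. The third was mats, a Hippo pathway gene (344 ± 44.5 to 156 ± 29.5).

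Gap junction genes changed in both directions. Innexins form the gap junctions of invertebrates, and the germline innexin gene zpg fell from 1402 ± 123 to 56.5 ± 9.63, a log2 fold change of -4.47. Over the same interval Inx2 rose from 166 ± 31.3 to 933 ± 78.6, and ogre appeared (15.6 ± 6.47 to 225 ± 26.4, at least 10.2-fold). Inx3 had 24.1, 2.5 and 2.4 at T0 and 773.1, 810.8 and 785.9 at T1, so 1 T0 array lay just above background and the rest below. Inx2, Inx3 and ogre were named after their values were seen.

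Septins, the filament-forming GTPases of the cleavage furrow, did not move as a family. Septin5 had 104.5, 108.1 and 70.2 at T0 and 2721.8, 2896.0 and 2644.2 at T1, 29.2 times brighter (log2 fold change 4.79 ± 0.20, SE). Septin4 went the other way, from 192.6, 144.3 and 123.1 to 3.0, 5.6 and 8.3, at least 6.86-fold lower. The stages did not overlap in either gene. Septin1 was at 471 ± 63.7 and 1007 ± 184, a call that ended without T1 replicate 2 (log2 fold change 0.96) and with the ribosomal centring (0.50), and Septin2 was at 335 ± 16.4 and 574 ± 70.4 and was not called. Septin4 and Septin5 were chosen after their values were seen. In the list of maternal furrow and actomyosin genes, 5 of 30 measured members were higher and 5 lower, shares of 16.7% each. Over all genes 8.16% were higher and 16.5% lower, so the lower share is near that of all genes. With ribosomal centring 1 of the 5 higher calls remained, and the list's median of 0.46 turned to -0.12. The higher members were Septin1, baz, cno, ed and ena. The lower members included the Arp2/3 activator SCAR (119 ± 9.13 to 13.4 ± 4.76, at least 5.39-fold), Mbs, a subunit of myosin phosphatase (202 ± 38.5 to 66.6 ± 20.6), and the golgin gene lva.

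**Figure D2:**
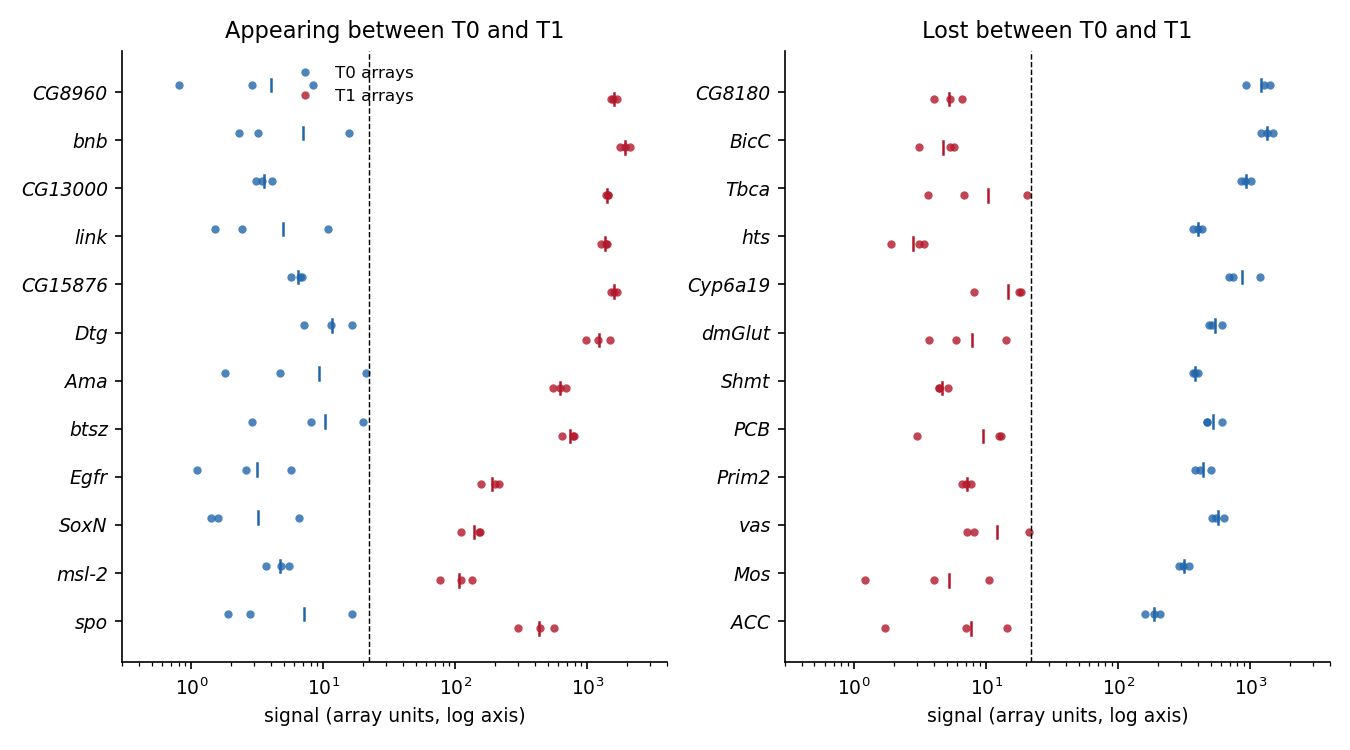
Signal of every array (points, log axis, array units) for 12 genes of the appearing class and 12 of the lost class, with T0 in blue and T1 in red, short lines at the means and the background level of 21.96 dashed. In each of the 24 genes the arrays of the dim stage all lie at or below background and those of the bright stage all above it.

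Many regulators of body pattern rose. Of 15 measured gap and head gap genes 12 were higher, of 8 pair-rule genes 7, of 22 dorsal ectoderm and BMP pathway genes 15, and of 25 proneural, Notch and Bearded genes 16. Their medians on the log2 scale were 2.81, 4.16, 1.19 and 1.16. In these 4 lists 1 member was called lower, cad, which is supplied by the mother and fell from 707 ± 83.2 to 216 ± 21.1. With the ribosomal centring 12 of 12, 6 of 7, 8 of 15 and 10 of 16 of these calls remained. The hindgut gene byn appeared at 219 ± 15.6 (at least 9.98-fold), and kni, a trunk gap gene, reached 443 ± 7.89.

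Ligands, receptors and regulators of the BMP, Hedgehog, EGF and JAK/STAT pathways, which pattern the ectoderm, were among the genes that rose. The BMP ligand genes dpp and gbb reached 66.4 ± 18.4 and 81.0 ± 7.80 from below background, at least 2.95-fold and 3.68-fold higher. The extracellular modulator tsg went from 23.9 ± 17.0 to 388 ± 40.9. Egfr, the EGF receptor gene, had 2.6, 1.1 and 5.7 at T0 and 155.5, 213.2 and 200.7 at T1, at least 8.56-fold higher, while its ligand gene spi was at 191 ± 40.3 and 352 ± 23.7 and was not called. For Hedgehog signalling, the receptor gene ptc had 3.4, 4.2 and 3.3 at T0 and 284.4, 231.3 and 301.3 at T1 (at least 12.3-fold), the transducer gene smo rose from 127 ± 7.62 to 439 ± 71.5, and the transcription factor gene ci appeared at 66.2 ± 12.4. The ligand gene hh itself was below background on average in both stages (1.77 ± 2.29 and 5.57 ± 3.97), as were en, inv, gsb and gsb-n. Of the 12 measured segment polarity genes 4 were higher, and H15 fell from 52.5 ± 17.0 to 13 ± 3.08, a call that ended when the pseudocount was set to the median signal (-0.93 on the log2 scale). For JAK/STAT, the ligand gene upd1 appeared (2.5, 2.3 and 3.8 at T0, 137.9, 245.5 and 290.1 at T1, at least 9.75-fold), and Stat92E rose from 402 ± 51.5 to 1029 ± 280, a call lost with ribosomal centring (log2 fold change 0.73, adjusted p = 0.10).

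In the presumptive nervous system, the Sox genes SoxN and D appeared at 138 ± 24.2 and 471 ± 32.8, at least 6.23-fold and 21.4-fold higher. They and Egfr were 3 of the 5 higher calls among 9 measured neurogenic ectoderm genes. The others, ths and pyr, encode FGF ligands and were at 22.4 ± 4.44 and 35.2 ± 10.4 at T1. Both calls ended without T0 replicate 3 (log2 fold changes 0.90 and 0.82), T0 replicate 4, T1 replicate 2 or T1 replicate 3. They also ended with a replicate block and with ribosomal centring. The genes ind and Dr, which mark the intermediate and dorsal columns, stayed below background. Guidance and identity genes known from the later nerve cord were already above background: comm (102 ± 44.4), fra (103 ± 32.6) and sli (54.3 ± 3.68), with the POU factor gene pdm2 at 88.7 ± 26.4. They rose at least 4.30-fold, 4.52-fold, 2.47-fold and 3.91-fold. Their T4 signals were higher again, 379, 316, 132 and 974 on average. These 4 genes were chosen after their values were seen.

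Of 9 measured genes of sex chromosome counting and dosage compensation 7 were higher and 1 lower. With arrays centred on ribosomal proteins or on hybridisation controls 4 of the 7 higher calls remained. The gene msl-2, which encodes the male-specific subunit of the dosage compensation complex, had 3.7, 4.8 and 5.5 at T0 and 132.7, 76.9 and 110.8 at T1, at least 4.74-fold higher. The repressor gene emc rose from 109 ± 27.1 to 565 ± 169. Its partner da, a maternal activator of Sxl, fell from 671 ± 77.8 to 239 ± 33.0. Sxl itself was at 342 ± 54.4 and 825 ± 101, and its call ended with ribosomal centring (log2 fold change 0.68, adjusted p = 0.16). A pool of embryos holds both sexes, and the sexes were not separated.

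Enzymes of ecdysteroid synthesis, the Halloween genes, were divided. The cytochrome P450 gene spo had 16.6, 2.8 and 1.9 at T0 and 295.5, 560.1 and 434.1 at T1, at least 18.9-fold higher. The next enzymes of the pathway, phtm and dib, reached 293 ± 18.9 and 98.0 ± 20, with log2 fold changes of 2.96 ± 0.34 (SE) and 2.54 ± 0.33 (SE). In phtm 1 T0 array (11.2) was far below the others (51.7 and 45.2), but none reached the T1 range of 271.4 to 306.6. The last steps, sad and shd, were at 70.8 ± 23.2 and 14.4 ± 10.8 at T1 and were not called. These 5 genes were chosen after their values were seen.

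Among the mesoderm genes 5 of 14 were higher and 3 lower. The mesoderm determinant twi had 22.8, 17.6 and 4.6 at T0 and 1257.5, 1140.6 and 1019.2 at T1, and sna 28.0, 7.1 and 25.4 and then 1330.5, 1427.1 and 1396.9, without overlap in either. Cyp310a1 and ltl appeared at 72.9 ± 29.0 and 59.1 ± 13.8, and htl, an FGF receptor gene, was below background at 12.9 ± 9.03, a call that ended without T1 replicate 2 or T1 replicate 3 (log2 fold changes 0.87 and 0.93). T48 and Mes2, of which T48 acts in apical constriction, were lost at T1 (at least 5.54-fold and 7.20-fold lower) and stood at 91.2 and 185 on average at T4, against 122 ± 13.7 and 158 ± 7.86 at T0. The transcription factor gene zfh1 fell from 185 ± 18.3 to 22.2 ± 9.50 and was at 536 at T4. The median of the 3 at T1 was 5.15% of the T0 signal and at T4 117%. In a list of hemocyte, tracheal and salivary gland genes 3 of 14 were higher and 1 lower. The GATA factor gene srp, of the future blood and fat body, and rib, of the future trachea and salivary gland, appeared at 101 ± 23.5 and 439 ± 126.

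Some genes that rose lie next to each other, and so do genes that fell. Of 879 genes called higher with a place in the gene order, 179 (20.4%) had a neighbour also called higher. For genes called lower this was 623 of 1781 (35.0%), a larger share. Among 168 appearing genes 16 (9.52%) had an appearing neighbour. In the order of the RefSeq annotation, CG15876, CG13713 and CG13712 are adjacent and rose at least 72.2-fold, 33.4-fold and 8.60-fold, to 1586 ± 87.2, 733 ± 21.7 and 191 ± 33.6. CG13711, which is not in that run, rose at least 43.2-fold to 952 ± 108. At T4 the 4 genes were at 9.47, 21.1, 5.30 and 9.20 on average, all below background. Nplp2, CG14111 and SNCF were also adjacent, at 72.1 ± 24.2, 138 ± 8.32 and 3086 ± 249. A further run, Tom, Brd and Ocho, encodes Bearded family inhibitors of Notch signalling, and the 3 genes reached 1439 ± 246, 284 ± 16.5 and 367 ± 55.9. These runs were chosen after the values were seen.

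The early zygotic signal was not equally low on all T0 arrays. Among the 114 genes called higher by 3 or more on the log2 scale, T0 replicate 2 held the highest T0 signal in 66 (57.9%), with a median of 10.6 against 5.90 on replicate 3 and 4.55 on replicate 4. Among 3688 uncalled genes at or below background on all T0 arrays replicate 2 held the highest in 38.9%. The sets are unlike, since 28, 16 and 19 of the 114 genes lay above background on T0 replicates 2, 3 and 4. Examples with replicate 2 highest, chosen after their values were seen, were CG4440, with 98.4, 20.5 and 5.0, CG13427, with 78.2, 3.3 and 5.3, and Tom, with 58.0, 8.9 and 5.0. Their T1 signals were 7981 ± 417, 8637 ± 270 and 1439 ± 246, so the values of replicate 2 remained small beside them. Its part in the results was not tested beyond leaving the array out, after which all 114 were still called. That check cannot decide it. Leaving out the highest T0 signal of a gene can only enlarge its rise, and all 114 were also still called without any other single array. In a list of early zygotic genes 10 of 10 were called higher, with a summed signal of 555 to 697 on T0 and 26427 to 28751 on T1 arrays. That list was chosen with earlier results of these data known, so it is not an independent check of the labels. Of the 17 eggshell and yolk protein genes 0 were called in limma in either direction and 0 had an unadjusted p under 0.05, and 3 were above background at T0. Of 12 late differentiation genes 1, Obp56a, was called higher, at 32.8 ± 13.1.

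The largest fall in the lost class was that of BicC, an RNA-binding gene of the oocyte. It had 1491.5, 1200.5 and 1343.6 at T0 and 5.7, 3.1 and 5.3 at T1, at least 61.0-fold lower (log2 fold change -6.82). All T1 arrays lay below background. Other large falls came from several functions. Tbca, a tubulin folding cofactor, had 908.7, 848.8 and 1011.3 at T0 and 6.8, 20.5 and 3.6 at T1, at least 41.9-fold lower (log2 fold change -5.84 ± 0.29, SE, adjusted p = 3.8e-09). The adducin gene hts went from 432.7, 365.8 and 398.8 to 1.9, 3.1 and 3.4, at least 18.1-fold lower, and was still at 2.73 on average at T4. In both genes all T1 arrays were below background and the T0 arrays close to one another. CG8180 (1201 ± 246 to 5.27 ± 1.25, at least 53.8-fold) and the cytochrome P450 gene Cyp6a19 (868 ± 273 to 14.7 ± 5.76, at least 38.3-fold) were lost too. So were bgm, a very long chain acyl-CoA synthetase gene (at least 32.9-fold), the glutathione transferase gene GstE6 (26.6-fold at the least), the solute carrier gene dmGlut (538 ± 64.9 to 7.87 ± 5.42, at least 24.4-fold) and fs(1)N, which acts in the vitelline membrane and terminal patterning (at least 21.2-fold). Mos, a kinase gene of oocyte maturation, fell at least 14.2-fold, from 313 ± 27.6, and was chosen after its values were seen.

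Among transcripts that fell but stayed above background, dhd was the brightest at T0. It encodes the germline thioredoxin Deadhead, which acts on the sperm nucleus in the egg. It had 6895.2, 6044.2 and 7673.6 at T0 and 91.9, 129.8 and 92.9 at T1, a log2 fold change of -5.95 ± 0.47 (SE, adjusted p = 3e-07). All T1 arrays held a small part of the T0 signal, and the mean fell further to 24.1 at T4. A second thioredoxin gene, Trx2, fell from 804 ± 219 to 26 ± 12.4, close to the background level of 21.96. The yolk protein receptor gene yl fell from 1597 ± 542 to 38.7 ± 12.3, the peroxidase gene Pxt from 2757 ± 226 to 120 ± 3.60, and the actin-binding gene cib from 1653 ± 510 to 68.3 ± 26.4. Nacalpha, a subunit of the nascent polypeptide-associated complex, went from 3341 ± 1264 to 115 ± 3.87 and was at 597 at T4. The amino acid transporter gene slif fell from 1303.2, 1363.5 and 1224.0 to 19.7, 3.1 and 28.2, and so did not stay above background on every T1 array. Trx2, yl and slif were chosen after their values were seen.

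**Figure D3:**
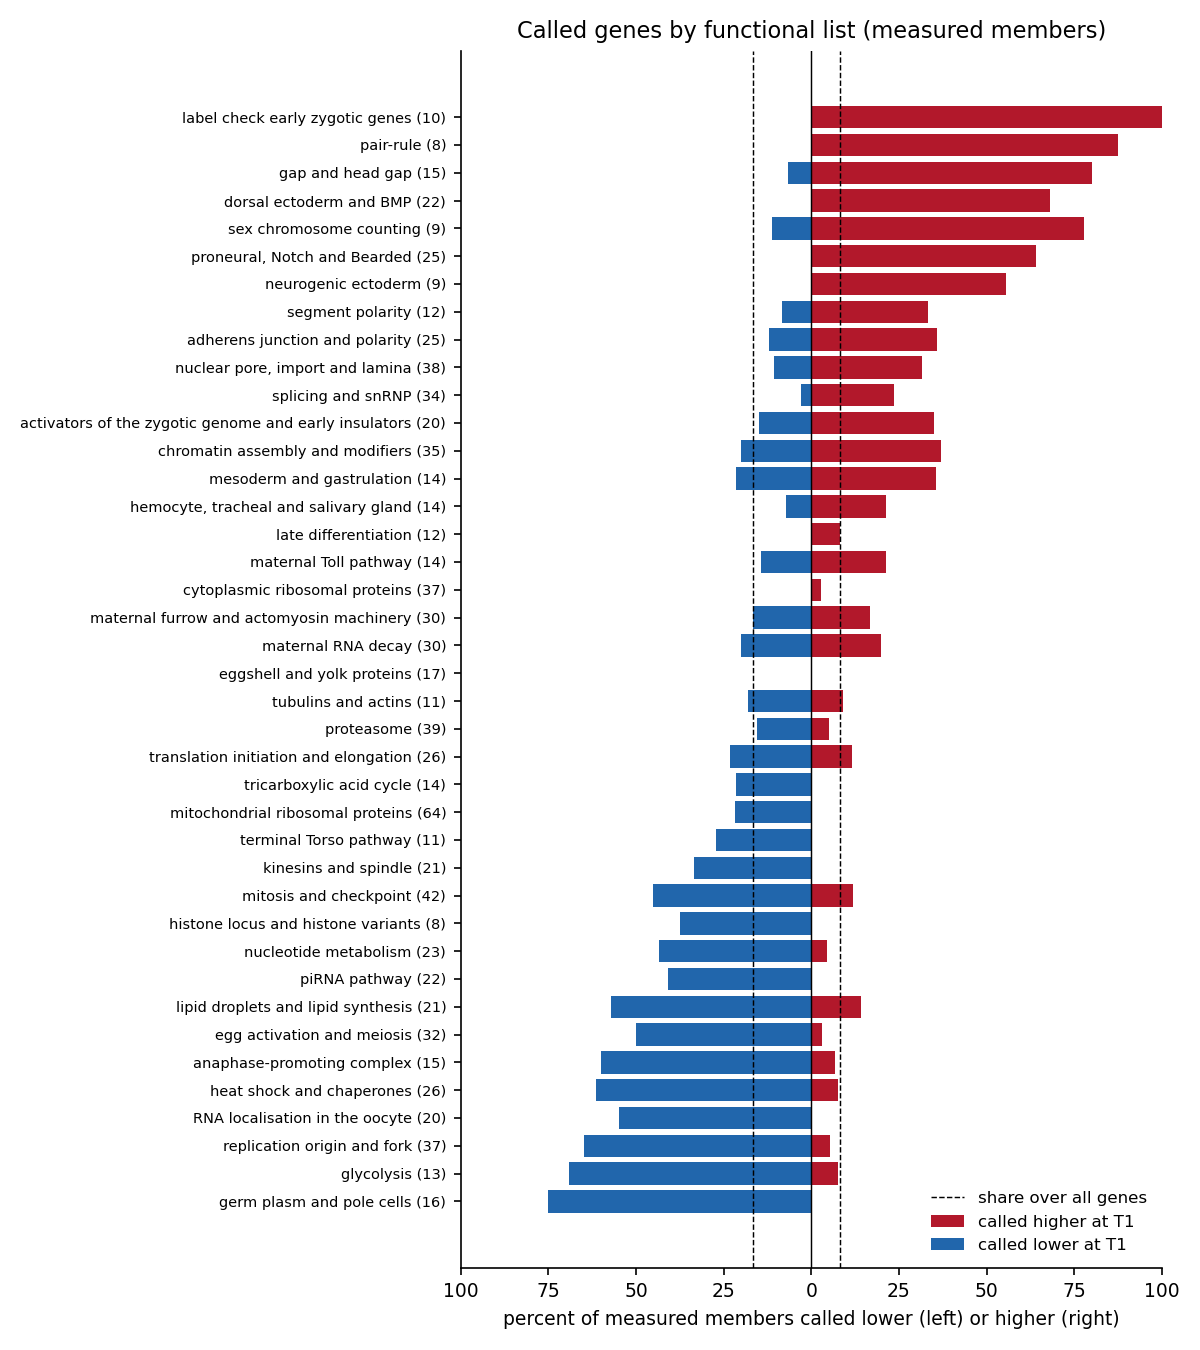
Percent of the measured members of each functional list called lower (blue, to the left) or higher (red, to the right) at T1, for lists with 8 or more measured members, whose number stands in brackets. The dashed lines mark the shares over all genes, 16.5% lower and 8.16% higher. Patterning lists lie to the right, and germ plasm, glycolysis and replication lists to the left.

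Many germline and polarity RNAs of the oocyte fell. Of 16 measured germ plasm and pole cell genes 12 were lower (75%) and 0 higher in limma, where 3 were higher at an unadjusted p under 0.05, with a median log2 fold change of -1.73, and of 20 genes of RNA localisation in the oocyte 11 were lower (55.0%) and 0 higher, with 3 higher at an unadjusted p under 0.05 and a median of -1.80. The translational repressor gene nanos, whose RNA marks the posterior pole, had 1426.6, 1472.5 and 2270.7 at T0 and 90.4, 128.9 and 162.0 at T1 (log2 fold change -3.69 ± 0.32, SE). The anterior determinant bcd had 466.0, 481.3 and 347.4 at T0 and 81.3, 68.6 and 109.1 at T1, a smaller fall of 2.24 on the log2 scale. Both genes, which were chosen after their values were seen, kept a signal above background on every T1 array. The RNA-binding gene orb was lost (229 ± 10.1 to 7.97 ± 3.52, at least 10.4-fold), as were shu and ovo, and pgc, the transcriptional repressor of pole cells, fell from 693 ± 109 to 103 ± 13.5. Not every member fell. Values were 263 ± 25.8 and 418 ± 26.7 for stau, 576 ± 17.6 and 1148 ± 76.0 for glo, 144 ± 22.8 and 266 ± 18.8 for aub, and 214 ± 17.9 and 435 ± 21.6 for tej, none of them called. All 11 localisation genes that fell had at T4 10% or less of their T0 signal.

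In the piRNA pathway, which silences transposons in the germline, 9 of 22 genes were lower and 0 higher in limma, with 5 higher at an unadjusted p under 0.05 and a median of -0.35. The nuclear effector del was lost (379 ± 47.1 to 13 ± 5.30, at least 17.2-fold), and piwi fell from 242 ± 16.1 to 52.5 ± 8.11. The pathway genes mino (409 ± 43.5 and 458 ± 35.8) and mael (355 ± 56.1 and 579 ± 37.5) were not called.

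Many egg activation genes fell. The kinase complex of Pan gu, which triggers translation and decay of maternal RNAs at egg activation, is encoded by png, plu and gnu. All 3 fell, and gnu had 656.6, 720.8 and 669.5 at T0 and 37.9, 38.4 and 29.1 at T1. The Greatwall kinase gene gwl and its substrate gene endos, which together inhibit a phosphatase at entry into mitosis, fell from 651 ± 57.5 to 100 ± 8.56 and from 680 ± 49.1 to 71.6 ± 19.4. The Polo inhibitor gene mtrm fell from 480 ± 23.2 to 15 ± 11.2. Over the list 16 of 32 measured members were lower (50.0%) and 1 higher, the separase regulator thr, whose call ended without T0 replicate 3 or T0 replicate 4 (log2 fold changes 0.98 and 0.95). The genes plu, gnu, gwl and endos were chosen after their values were seen. In the anaphase-promoting complex, the ubiquitin ligase of mitotic exit, 9 of 15 were lower, and under quantile normalization 5 of the 9 were still called. Its female meiotic activator cort was lost (239.1, 307.1 and 449.8 at T0, 12.5, 12.4 and 7.9 at T1, at least 14.6-fold), and the inhibitor Rca1 fell from 405 ± 58.8 to 39.3 ± 7.32. The mitotic activator fzy was at 310 ± 21.2 and 605 ± 78.0 and was not called.

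Many DNA replication genes fell. Of 37 measured origin and fork genes 24 were lower (64.9%) and 2 higher, with a median log2 fold change of -1.5. Leaving out any single array kept 23 or 24 of the 24. Of the 2 higher calls 0 remained with centring on ribosomal proteins or hybridisation controls, or with the pseudocount at the median signal. Orc4, of the origin recognition complex, had 246.4, 251.1 and 266.5 at T0 and 3.9, 1.1 and 3.0 at T1, at least 11.6-fold lower. Orc2 was lost as well (154 ± 16.8 to 3.47 ± 1.61), and Orc1 and Orc5 fell to 78.7 ± 8.87 and 65.4 ± 10.5. Of the MCM helicase, Mcm2, Mcm3, dpa and Mcm5 fell by 1.41, 2.06, 2.04 and 1.33 on the log2 scale, and Mcm6 was at 177 ± 17.9 and 141 ± 6.41 and was not called. At the fork, Fen1 and Gnf1 were lost, RPA1 fell from 818 ± 125 to 41.3 ± 9.18, and the ligase gene DNAlig1 went from 333.8, 417.5 and 365.8 to 29.7, 29.5 and 31.5. PCNA, the sliding clamp, stayed bright at 2109 ± 194 and 1527 ± 237 and was not called. The Orc and MCM members and DNAlig1 were chosen after their values were seen. The mismatch repair gene Msh6 was lost (442 ± 42 to 7.07 ± 0.306), and so was HipHop, a telomere capping gene (400 ± 50.1 to 4.40 ± 1.71).

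Most replication genes that fell had a higher signal again at the last stage measured. Of the 24 that fell, 20 (83.3%) had at T4 a mean signal of at least 50% of that at T0, and their median signal was 15% of T0 at T1, 34.7% at T2, 66.1% at T3 and 91.7% at T4. Over all 1784 genes called lower 777 (43.6%) were at 50% or more at T4. None of the 16 egg activation genes and none of the 9 glycolysis genes that fell were, and their medians at T4 were 11.3% and 4.12% of T0. Stages T2 to T4 follow T1 and were labelled as the fast phase of cellularisation and the start and end of germ band elongation. They were not part of the test, and the T0 signal enters both values. Of the 383 lost genes 156 (40.7%) were above background on all T4 arrays and 114 (29.8%) at or below it on all.

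**Figure D4:**
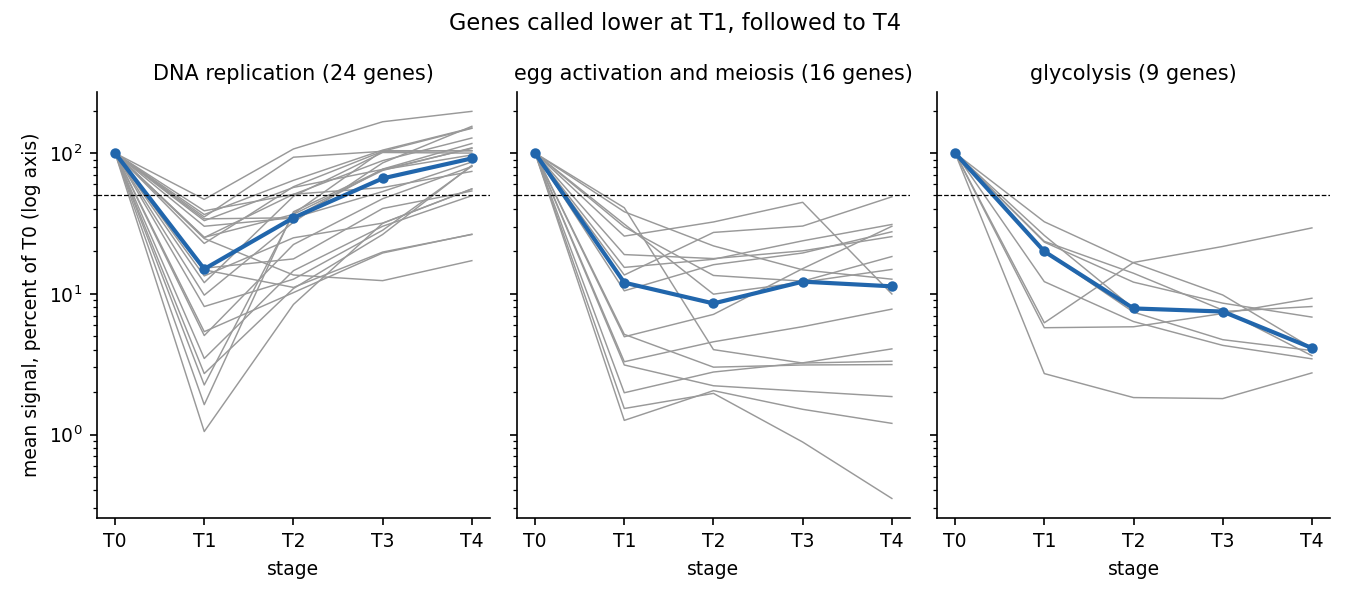
Mean signal at T0 to T4 as a percent of T0 (log axis) for the genes called lower at T1 in the DNA replication, egg activation and glycolysis lists. Grey lines are genes, the blue line is their median, and the dashed line marks 50%. The replication median goes from 15% at T1 to 91.7% at T4, while those of egg activation and glycolysis end at 11.3% and 4.12%.

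Mitotic genes changed in both directions. Of 42 measured genes of mitosis and its checkpoints 19 were lower and 5 higher. The checkpoint kinase genes grp and lok, for Chk1 and Chk2, fell from 1155 ± 48.2 to 318 ± 39.2 and from 773 ± 12.8 to 103 ± 10.6, and grp was chosen after its values were seen. Among centrosome genes of the list, spd-2 fell from 937 ± 112 to 132 ± 26, Sas-4 to 18.7 ± 5.13 and Grip84, of the gamma-tubulin ring, from 474 ± 14.7 to 17.4 ± 8.70, while asl and SAK, with log2 fold changes of 0.56 and 0.55, were not called. Of the 5 condensin subunits in the list SMC2, glu and Cap-D2 were higher by 1.19, 1.18 and 1.23 on the log2 scale, but with ribosomal centring these were 0.61, 0.60 and 0.65 and no longer called. The other two, Cap-G and barr, were not called, with log2 fold changes of -0.21 and -0.60. These uncalled centrosome and condensin genes were chosen after their values were seen. Tubulin isotypes differed. The maternal alphaTub67C had 1504.5, 1500.4 and 1842.4 at T0 and 83.3, 86.2 and 61.6 at T1, and gammaTub37C, the maternal gamma-tubulin, fell from 716 ± 51.5 to 23.1 ± 19.4. The general isotype gene alphaTub84D was at 1372.8, 1360.8 and 1886.8 and then at 4130.5, 4084.7 and 3949.6, 2.63 times brighter, a call that ended with ribosomal centring (log2 fold change 0.83) and under quantile normalization. Alpha-tubulin genes are similar in sequence, and whether their probe sets share transcripts was not tested.

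Many protein folding factors fell. Of 26 measured heat shock and chaperone genes 16 were lower (61.5%) and 2 higher, with a median log2 fold change of -1.62. The mitochondrial chaperonin gene Hsp60A had 2529.1, 2258.5 and 2642.5 at T0 and 46.6, 22.5 and 79.3 at T1, a fall of 5.58 on the log2 scale. Of the 8 subunits of the cytosolic chaperonin, which folds actin and tubulin, 7 fell. They were chosen after their values were seen. CCT8 went from 733.8, 743.1 and 696.6 to 69.6, 67.6 and 64.1, and CCT2 from 2882 ± 661 to 464 ± 103. CCT3 had the smallest difference, 373 ± 16.9 and 207 ± 21.7, and was not called. At T4 the means of CCT1 to CCT8 were between 68.5 and 740. The cytosolic Hsc70-4 (2874 ± 257 and 4256 ± 379) was not called, and Gp93, the chaperone of the endoplasmic reticulum, was at 573 ± 140 and 1354 ± 83.6, a call that ended with ribosomal centring (log2 fold change 0.67).

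Genes of carbon metabolism fell in part. In the glycolysis list, which also holds Gpdh1, Pgm1 and UGP, 9 of 13 measured genes were lower (69.2%) and 1 higher, with a median of -2.06. With a pseudocount of 1 and with a replicate block 7 of the 9 lower calls remained. Gapdh1 had 2557.3, 2650.0 and 2913.9 at T0 and 399.9, 305.3 and 289.2 at T1, and Eno, for enolase, 2016.2, 2081.2 and 1841.1 and then 626.5, 388.3 and 366.8. The hexokinase gene Hex-A was lost (117 ± 10.1 to 3.17 ± 0.404, at least 5.30-fold), while Ald1, for aldolase, was at 1236 ± 89.8 and 1537 ± 302 and was not called. The single higher gene, Pgm2a, lost its call without T1 replicate 3 (log2 fold change 0.97). In the citric acid cycle and its feeding reactions 3 of 14 were lower and 0 higher in limma, with 3 higher at an unadjusted p under 0.05. The pyruvate carboxylase gene PCB was lost (518 ± 82.6 to 9.47 ± 5.60, at least 23.4-fold), and the NADP-linked genes Idh and Men fell by 2.96 and 2.53 on the log2 scale. The other 11, among them mAcon1 (1152 ± 62.0 and 1877 ± 58.3), were not called.

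Many genes of lipid storage and synthesis fell. The histone-anchoring droplet protein gene Jabba had 3285.2, 2917.0 and 3418.2 at T0 and 80.6, 67.7 and 64.5 at T1, 45.2 times dimmer (log2 fold change -5.36 ± 0.22, SE). The perilipin gene Lsd-2 fell from 1607 ± 529 to 189 ± 60.1. Of the genes of fatty acid metabolism ACC, for acetyl-CoA carboxylase, fell from 185 ± 23.5 to 7.70 ± 6.38, the regulator SREBP from 192 ± 54.3 to 11.2 ± 6.35, Acsl to 11.1 ± 5.35, and the desaturase gene Desat1 from 188 ± 24.4 to 32.9 ± 7.80. The fatty acid synthase gene FASN1 had mean signals below background at both stages (13.1 and 12.5) and was not called. The lipase gene bmm rose, from 121 ± 18.7 to 397 ± 45.5. Over the list 12 of 21 were lower (57.1%) and 3 higher. Of the purine synthesis genes ras, for IMP dehydrogenase, fell at least 12.9-fold, Prat at least 6.79-fold and Paics from 377 ± 63.7 to 34.9 ± 6.67. Gart, Adss, bur and Prat2, of the same synthesis, were not called, with log2 fold changes of -0.03, 0.98, 0.92 and 0.07. FASN1, Gart, bur and Prat2 were chosen after their values were seen. The one-carbon enzyme gene Shmt had 365.6, 401.5 and 383.1 at T0 and 4.4, 5.1 and 4.4 at T1, at least 17.4-fold lower. Of 23 nucleotide metabolism genes 10 were lower and 1 higher.

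Nuclear machinery for gene expression had more higher than lower calls in the deposited scaling, with small changes, and the reverse with ribosomal centring. Of 35 measured chromatin genes 13 were higher and 7 lower, of 34 splicing genes 8 and 1, of 38 nuclear pore, import and lamina genes 12 and 4, with medians of 0.76, 0.81 and 0.62 on the log2 scale. The 7 chromatin genes that fell were the histone chaperone genes Nap1 (1695 ± 368 to 359 ± 29.2), asf1, yem and Hira (341 ± 47.4 to 43.7 ± 3.90), the embryonic linker histone gene BigH1 (615 ± 42.9 to 200 ± 9.72), and E(z) and esc, of the Polycomb methyltransferase. Higher members included nej, the CBP acetyltransferase gene (458 ± 233 to 1376 ± 314), the remodeller gene dom, and HDAC1. Of the splicing factors Sf3b3 rose from 175 ± 29.3 to 645 ± 26.5, and tra2 fell from 505 ± 179 to 78.8 ± 14.7. Among pore and transport genes, emb, for the exportin, rose from 281 ± 54.8 to 877 ± 78.5, and Nup43 fell from 428.9, 561.5 and 620.3 to 23.5, 14.6 and 19.3. With ribosomal centring 1 of 13, 1 of 8 and 2 of 12 of the higher calls remained. With centring on hybridisation controls 1, 2 and 2 remained. All 7, 1 and 4 lower calls remained under both, but both centrings move every log2 fold change down, so this was close to fixed in advance. All calls counted, ribosomal centring gave 1 higher and 11 lower chromatin genes, 1 and 2 splicing genes, and 2 and 11 pore and import genes. The balance of these 3 lists depends on that scaling.

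Larger rises of regulators remained called under the 4 scalings tried. The poly(A) polymerase gene hrg had 101.0, 95.2 and 97.4 at T0 and 2254.2, 2414.7 and 2517.6 at T1, 24.5 times brighter, and was back at 150 at T4. Taf4, of the general factor TFIID, rose from 41.7 ± 13.2 to 608 ± 68.3, and Uhg1, a host gene of small nucleolar RNAs, from 28.9 ± 1.96 to 430 ± 25.6. The pioneer factor gene zld, whose maternal product opens early enhancers, had 177.3, 72.9 and 101.8 at T0 and 640.5, 475.3 and 660.7 at T1, a log2 fold change of 2.34 ± 0.27 (SE, adjusted p = 1.1e-05). The groups did not overlap. The insulator genes insv and Elba2 rose from 532 ± 70.3 to 2628 ± 523 and from 888 ± 235 to 3981 ± 436, and Elba2 was at 88.9 at T4. CTCF, another insulator gene, fell from 280.7, 318.2 and 364.2 to 21.6, 36.9 and 37.4. Of 20 activators and insulators 7 were higher and 3 lower, and 5 of the 7 remained with ribosomal centring.

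RNA decay and protein turnover genes gave mixed counts. Of 30 measured genes of RNA decay 6 were higher and 6 lower. The lower ones included the deadenylase genes twin (361 ± 91.0 to 95.1 ± 37.9) and Not10, the translational repressor smg, and Upf1. None of the 6 higher calls, among them pAbp, gw, PAN2 and Patr-1, remained with ribosomal centring, and the list's median of 0.42 turned to -0.16. Of 39 measured proteasome genes 6 were lower (15.4%, against 16.5% of all genes) and 2 higher (5.13%), Prosalpha6T and Rpt3R, whose calls both ended without T1 replicate 1 (adjusted p = 0.14 and 0.053). The 6 lower genes encode regulatory particle subunits (Rpn1, Rpn3, Rpn7, Rpn8, Rpn11 and Rpt5), with Rpn8 going from 490 ± 78.9 to 50.4 ± 9.50. The core subunits Prosalpha2, Prosbeta4 and Prosbeta6 were between 1852 and 2177 at T0 and between 3206 and 3724 at T1, and were not called. Translation factors fell in 6 of 26 cases, led by eIF6 (441 ± 95.5 to 60.3 ± 31.1), and rose in 3, all 3 lost with ribosomal centring. Of 37 measured cytoplasmic ribosomal protein genes, from 93 listed, 1 was called, RpLP0-like, higher, and its call ended without T0 replicate 3 (log2 fold change 0.98). The list takes in genes named as like a ribosomal protein, RpLP0-like among them. In limma 28 of the 37 were higher and 0 lower at an unadjusted p under 0.05, and 32 were above background on all T0 arrays. The median of the 37 was 0.63, against 0.08 over all genes, and 0.04 after the centring that uses them. Of 64 mitochondrial ribosomal protein genes 14 were lower (21.9%) and 0 higher in limma, with 15 higher at an unadjusted p under 0.05.

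Small rises lost their calls under some scalings. The centring on ribosomal proteins moved the median of all probe sets from 0.08 to -0.50, and that on hybridisation controls to -0.43. Of the 683 genes called higher by less than 2 on the log2 scale, 63 (9.22%) and 77 (11.3%) were still called under these. All 202 genes called higher by 2 or more were called under the 4 scalings tried. All 1784 genes called lower were called under both of these centrings. Since both move every log2 fold change down, that outcome was close to fixed in advance. With quantile normalization 570 of the 883 genes called lower by less than 2 were still called (64.6%), and after centring on the array median 694 (78.6%). Higher calls made up 34.2% of all calls as deposited, 44.7% with quantile normalization, 47.7% after centring on the array median, 10.7% on hybridisation controls and 9.22% on ribosomal proteins.

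**Figure D5:**
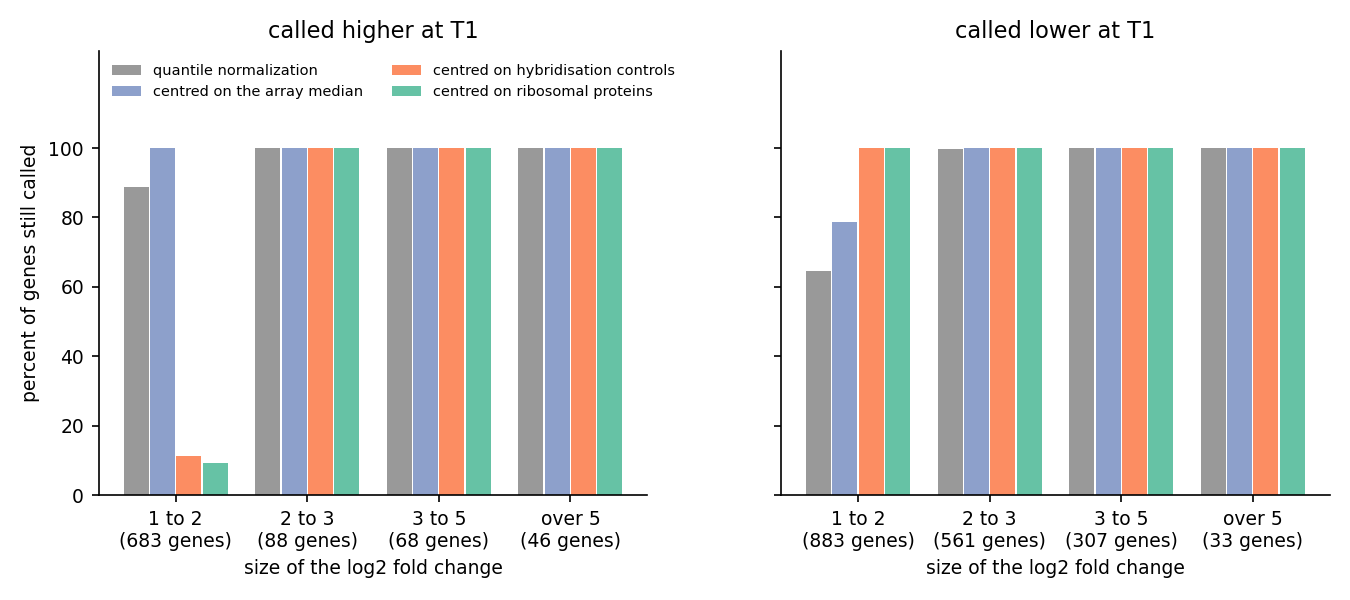
Percent of the genes called higher (left) or lower (right) at T1 that were still called under 4 other array scalings, by the size of their log2 fold change. Rises of less than 2 on the log2 scale kept 9.22% to 11.3% of calls under the centrings on ribosomal proteins and hybridisation controls, and rises of 2 or more kept all.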

How the data were processed

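Per the submitters' processing notes the deposited signals are MAS5 intensity values, 1 per probe set and array, on a linear scale. The version is not given in the sources used here. The 2% trimmed mean is 100 on all 15 arrays. The 44 control probe sets were left out, and 13966 were tested on log2(signal + 7.3) in limma 3.58.1 (R 4.3.3) with 1 mean for each of the 5 stages and all 15 arrays, without covariates. The fit was tested on simulated data. Tables were made with Python 3.11.15 and pandas 2.3.3. The number of arrays limits the precision.

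Of the probe sets 12443 had 1 gene symbol, 327 several and 1196 none, and 12394 symbols were updated or kept through an Entrez identifier. The probe set with the highest mean signal stood for its gene. Of 1209 genes with several probe sets 4 had opposite calls. Among the genes named, Nrt, btsz, ed, sdt, nej, emb, RPA1, ACC, gammaTub37C, Stat92E, Sxl, pdm2, spd-2, Mbs, ovo, pAbp and eIF6 each had a further probe set that was not called.

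The genes named are the members of 41 functional lists, the genes with the largest changes in each class, and genes said to have been chosen after their values were seen. The members and lists were chosen with earlier results of these data known. On opening the files 12 list members were resolved by name and 10 were taken out because the symbol stands for a gene of another function. Gene order came from RefSeq (Release 6 plus ISO1 MT). No batch is given in the labels. Alternatives were 4 other array scalings, 2 pseudocounts, a filter on dim probe sets, the 6 arrays alone, a replicate block, each array left out, and 2 other background levels.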

Additional observations from a re-analysis of the deposited data

Results flagged for a closer look

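Control probe sets outside the comparison carried a signal. The 3 GAPDH control probe sets had mean signals at T0 of 5161 (3' set), 2507 (5' set) and 4342 (middle set), far above the background level of 21.96. At T1 the means were 29.1, 12.2 and 63.9 in the same order. The probe set that stands for Gapdh1 in the comparison was at 12.2% of its T0 signal at T1. The actin and eIF-4a control probe sets were bright too, with means between 291 and 4353 at T0 and between 524 and 7037 at T1.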

How the results depend on the processing

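As deposited, 1092 probe sets were called higher and 2097 lower. With ribosomal centring 324 were higher and 3189 lower, with hybridisation controls 342 were higher, after centring on the array median 1716, and 682 when the pseudocount was the median signal. Quantile normalization gave 1435 higher and 1775 lower. Over all probe sets the log2 fold change had a median of 0.08 in the deposited scaling and of -0.50, -0.43 and 0.25 under the 3 centrings in that order. Leaving out 1 array gave 985 to 1136 higher and 1998 to 2059 lower. A fit with the replicate block gave 1065 and 2082. Deviations of same-numbered T0 and T1 arrays, over all probe sets, correlated at -0.036 for replicate 2 and -0.021 for replicate 3. Only these numbers occur in both stages, so the values cannot decide whether the numbers pair the samples. With the background at the 90th and 99th percentile of the negative controls, lost probe sets numbered 346 and 668 in place of 473, and appearing ones 189 and 224 in place of 209. No named gene reversed under any of these alternatives. Of 347 named genes called, 279 were called under every alternative with a value, and 311 under every one other than the 4 scalings.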
